A study of Arabidopsis thaliana with 4 samples.

Results

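The nuclear genes of the photosynthetic light reactions were examined for phytochrome A (phyA) occupancy in Arabidopsis thaliana seedlings. The set holds 47 genes of the 27444 protein-coding genes on the 5 nuclear chromosomes. They are defined by locus and function, and the rule uses no peak value, although the set was proposed with earlier results of these data known. It holds 21 genes of the light-harvesting antenna (LHCA and LHCB), 12 of photosystem I (PSA), 11 of photosystem II (PSB) and 3 of electron transport between the photosystems (PETC and the plastocyanin genes PETE1 and PETE2). The data are chromatin immunoprecipitation sequencing (ChIP-seq) of a phyA-GFP fusion, driven by the PHYA promoter in the phyA201 mutant, pulled down through its GFP part. The 3 ChIP samples came from dark-grown seedlings aged 4 days that had received 3 h of far-red light, and they are given as biologically distinct. An input sample from seedlings of the same age and light treatment belongs to the series, and no list of it was analysed here. Seedlings without far-red light or without the fusion were not analysed here, so no value below is set against such seedlings.

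phyA is the photoreceptor that acts in far-red light. It moves from the cytoplasm into the nucleus after irradiation and takes part there in switching on light-induced genes, of which the LHCB (CAB) genes are a classical example. Antenna proteins bind chlorophyll and pass excitation energy to the reaction centres. Photosystem II oxidises water, plastocyanin carries electrons onwards from the cytochrome complex, and photosystem I uses them to reduce ferredoxin. Most reaction-centre cores are encoded in the plastid, whereas the antenna and many peripheral subunits are encoded in the nucleus. The peak lists named chromosomes 1 to 5 only, so the plastid-encoded partners have no value here.

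Most of these genes lay at phyA-GFP peaks. Counting a gene when a peak overlapped its body or the 1000 bp outside either end, 39 of 47 genes (83.0%) had a peak in replicate 1, 39 (83.0%) in replicate 2 and 29 (61.7%) in replicate 3. The same rule called 35.3, 35.7 and 28.1% of all protein-coding genes in replicates 1, 2 and 3. A peak of every replicate was present at 26 of 47 genes (55.3%), against 18.8% of all protein-coding genes. With another 12 genes that had peaks in 2 replicates, 38 genes had peaks in at least 2, against 32.1% of all protein-coding genes. A further 5 genes had peaks in 1 replicate and 4 in none, where 51.9% of all protein-coding genes had none. Of the 12, 10 had peaks in replicates 1 and 2 and lacked one in replicate 3. They were LHCA6, LHCB2.1, LHCB3, LHCB5, LHCB7, PSAD1, PSAL, PSBQ1, PSBTN and PSBS. Replicates 1 and 2 were also the pair that most often shared a gene over all protein-coding genes. Peaks in both were present at 26.8% of these, against 21.4% for replicates 1 and 3 and 21.6% for replicates 2 and 3. Replicate 3 also had the shortest list of the series, with 6037 peaks holding 4951883 reads, against 7084 peaks with 11110782 reads in replicate 1 and 7534 peaks with 7702516 reads in replicate 2. The part of this in the missing calls was not tested, and total library depth is unknown.

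Overlapping peaks of the 3 replicates (by 1 bp or more) were next joined, to ask whether the replicates named the same place. A merged region with a peak of every replicate reached the window of 26 genes (55.3%), against 20.3% of all protein-coding genes. The gene sets under the 2 counts differ at 2 genes. At PSBO2 the peak of replicate 1 lay at the opposite end from those of replicates 2 and 3, so that it had a peak of every replicate but no common region. At LHCB1.1 the common region was reached through peaks of replicates 1 and 3 in its window, while the peak of replicate 2 lay farther away. LHCB1.3 shared this region, whose replicate 3 peak lay 1256 bp outside that gene. In it the peaks of replicates 2 and 3 did not overlap each other and were joined only by the long peak of replicate 1. These 26 genes were reached by 25 distinct regions of 3 replicates, since neighbouring LHCB1 copies shared regions and LHCB1.5 had a region at each end.

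The complexes did not separate in these counts. In the antenna, 17, 17 and 11 of 21 genes had a peak in replicates 1, 2 and 3, in photosystem I 9, 9 and 8 of 12 genes, and in photosystem II 10, 10 and 7 of 11 genes. As shares, photosystem II was the highest of these in replicates 1 and 2 (90.9%), with the antenna at 81.0% and photosystem I at 75.0% in both. In replicate 3 the order was photosystem I (66.7%), photosystem II (63.6%) and antenna (52.4%). Among these 3 complexes, only the pair of photosystem II over the antenna kept its order in every replicate. The 3 electron transport genes had a peak in each list. With 3 replicates a two-sided sign-flip permutation cannot go below p = 0.25, so no test of these differences was made. A peak of every replicate was present at 10 of 21 antenna genes (47.6%), 6 of 12 photosystem I genes (50.0%), 7 of 11 photosystem II genes (63.6%) and all 3 electron transport genes. Common regions were present at 11, 6, 6 and 3 genes in the same order.

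**Figure D1:**
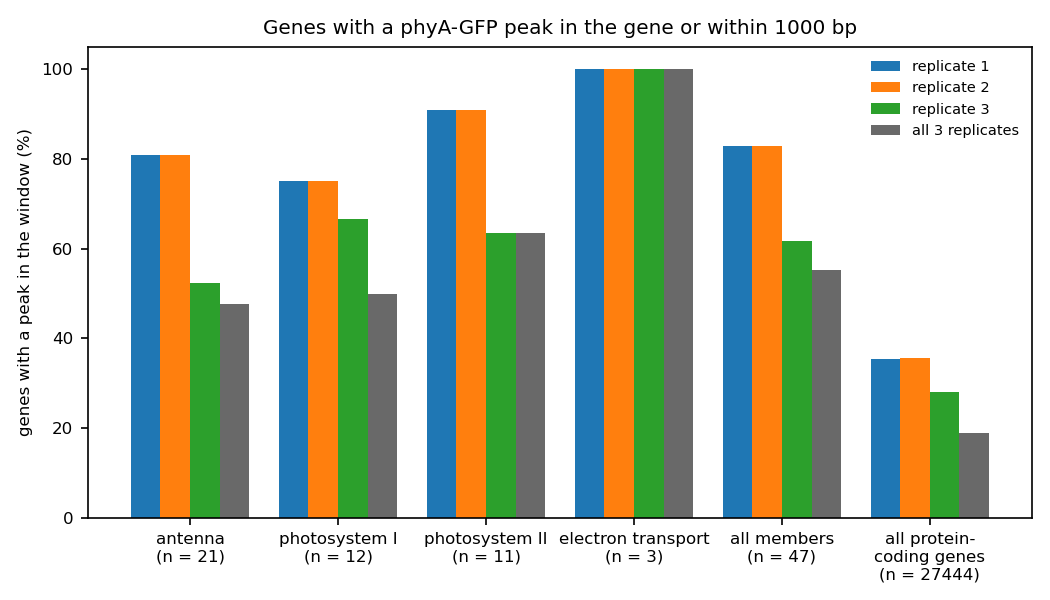
Percent of genes (vertical axis) with a phyA-GFP peak in the gene or within 1000 bp of it, for each complex, for all 47 members and for all 27444 protein-coding genes. Blue, orange and green bars are replicates 1, 2 and 3, and grey bars are genes with a peak in all 3. Each complex stood above the share of all protein-coding genes in each replicate, and the order of the first 3 complexes changed between replicates.

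The peaks at these genes were frequent, but their median height was somewhat below that of all genes with a peak in every replicate. Fold enrichment is the authors' value per peak, read as ChIP signal over local background, with a lowest value of 2.95 in each list. Taking the highest peak in each window, the median fold enrichment at member genes with a peak was 4.41, 3.86 and 3.45 in replicates 1, 2 and 3. Over all protein-coding genes with a peak, the same medians were 4.50, 3.94 and 3.64. Ranked within its own list, the median member peak stood at the 51.3, 50.4 and 40.9 percentile, against 55.0, 54.7 and 53.8 for all genes with a peak. In replicate 1, 12 of 39 member genes (30.8%) reached the strongest 25% of the list, against 28.8% of all genes with a peak. In replicates 2 and 3 this held for 7 of 39 (17.9%) and 5 of 29 (17.2%), against 28.2 and 27.3%. Over the 26 genes with a peak in every replicate, mean fold enrichment ran from 3.52 at PSBP1 to 5.17 at PSBO1. Their mean percentile rank ran from 24.2 at LHCA1 to 87.5 at PSBO1.

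**Figure D2:**
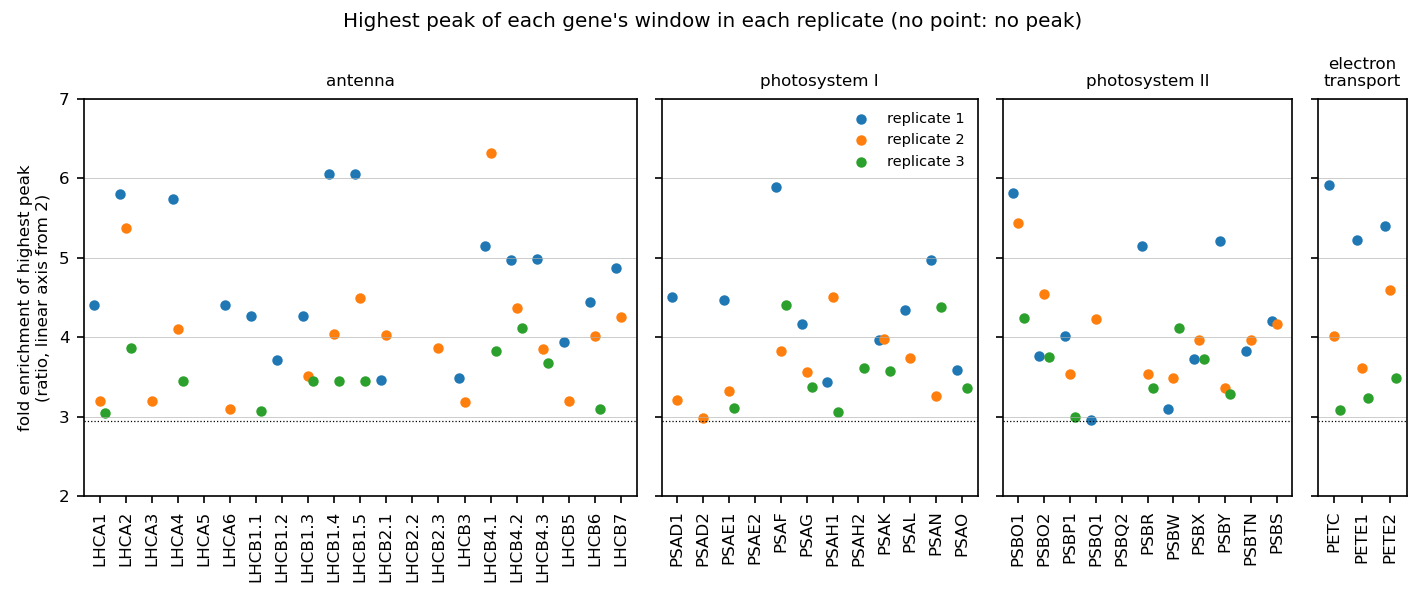
Fold enrichment (vertical axis, linear, starting at 2) of the highest peak in the window of each gene, by complex, with replicates 1, 2 and 3 in blue, orange and green. The dotted line marks 2.95, the lowest value in the lists, and a gene without a point in a colour had no peak in that replicate. Most points lie between that line and 5, and replicate 1 is often the highest.

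Among the antenna genes of photosystem I, LHCA1 to LHCA4 encode the proteins of the light-harvesting belt, and LHCA5 and LHCA6 encode minor proteins that link photosystem I to the NDH complex. LHCA2 (AT3G61470) had fold enrichments of 5.80, 5.37 and 3.86 in replicates 1, 2 and 3 (mean 5.01 ± 1.02, SD, n = 3), the second highest mean rank of all members. Its peaks lay at the end of the gene facing BRH1, on chromosome 3 within 22743510 to 22746881 (TAIR10). Replicate 3 resolved 2 peaks there, and the summits of the highest peaks spread over 957 bp. LHCA4 (AT3G47470) had 5.74, 4.10 and 3.45 (mean 4.43 ± 1.18), with peaks covering the whole gene in every replicate and summits just beyond the same end, 269, 125 and 99 bp outside. LHCA1 had peaks of every replicate at low rank, a mean of 3.55 ± 0.75. LHCA3 had 1 peak, in replicate 2, LHCA6 had peaks in replicates 1 and 2, and LHCA5 (AT1G45474) had none in any list. The 4 belt genes and the minor pair were therefore each mixed.

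The LHCB1 and LHCB2 genes encode the proteins of the major antenna trimers of photosystem II, and their sequences are so alike that reads may have been shared out or dropped among the copies, so their values are uncertain. LHCB1.4 (LHB1B1, AT2G34430) and LHCB1.5 (LHB1B2, AT2G34420), neighbours on chromosome 2, were the LHCB1 copies with the strongest peaks. The same peak between them, whose summits lay at 14523531, 14523522 and 14523433 in replicates 1, 2 and 3, had fold enrichments of 6.06, 3.22 and 3.45. These summits were just inside one end of LHCB1.5 and over 1000 bp from LHCB1.4. LHCB1.5 carried a second site at its other end, next to RWA3, with fold enrichments of 5.50, 4.49 and 3.27 and summits 91, 192 and 175 bp outside the gene. LHCB1.4 had a further peak of 4.04 in replicate 2, 141 bp outside the end that faces LHCB1.5. With the highest peak of each window, LHCB1.5 had a mean of 4.67 ± 1.31 and LHCB1.4 a mean of 4.52 ± 1.37 (SD, n = 3). Both means mix sites. In replicates 1 and 3 they use the shared peak (6.06 and 3.45). In replicate 2 they use the site next to RWA3 (4.49) for LHCB1.5 and the further peak of 4.04 for LHCB1.4.

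The LHCB1.2, LHCB1.1 and LHCB1.3 genes (CAB3, AT1G29910, CAB2, AT1G29920, and CAB1, AT1G29930), which follow each other on chromosome 1, were covered less evenly. LHCB1.3 had 4.26, 3.51 and 3.45 in replicates 1, 2 and 3. Its summits in replicates 1 and 2 lay inside the gene near one end, 230 and 203 bp from it, and that of replicate 3 lay 25 bp outside the other end. LHCB1.1 had peaks in replicates 1 (4.26, the peak shared with LHCB1.3, and 3.71) and 3 (3.07). LHCB1.2 had a single peak, in replicate 1, of 3.71, which began 629 bp outside the gene and had its summit on LHCB1.1. The 2 groups of LHCB1 copies thus differed in rank, and no test was made, since the copies of a group share peaks.

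LHCB2 genes had few peaks. LHCB2.1 (AT2G05100) had fold enrichments of 3.46 and 4.03 in replicates 1 and 2 and no peak in replicate 3. Both summits lay inside the same end of the gene, 85 and 52 bp from it. LHCB2.3 (AT3G27690) had 1 peak, of 3.86 in replicate 2, and LHCB2.2 (AT2G05070) had none in any list.

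LHCB3 is the third component of the major trimers, and LHCB4, LHCB5 and LHCB6 encode the minor antenna proteins CP29, CP26 and CP24. All 3 LHCB4 genes had a peak of every replicate and were among the first 10 members by mean rank. LHCB4.1 (AT5G01530) had fold enrichments of 5.15, 6.32 and 3.83 (mean 5.10 ± 1.25), and its value in replicate 2 was the highest of any member in any list. Its summits lay at 210521, 210603 and 210416 on chromosome 5, within 187 bp, at one end of the gene. LHCB4.2 (AT3G08940) had 4.97, 4.37 and 4.12 (mean 4.49 ± 0.44). Its peaks were short, a common region of 814 bp on chromosome 3 from 2716994 to 2717807, with summits 117, 84 and 70 bp outside the same end. LHCB4.3 (AT2G40100), a copy with a divergent C-terminus, had 4.99, 3.85 and 3.68 (mean 4.17 ± 0.71), with summits within 205 bp of each other around one end. LHCB6 had a peak of every replicate (mean 3.85 ± 0.68), but its highest peak in replicate 2 began 992 bp away and lay over a neighbouring gene. LHCB3, LHCB5 and the divergent LHCB7 had peaks in replicates 1 and 2.

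In photosystem I, PSAF (AT1G31330), whose product docks plastocyanin on the lumen side, had the highest rank. Its fold enrichments were 5.89, 3.83 and 4.40 in replicates 1, 2 and 3 (mean 4.71 ± 1.06), with summits 160, 15 and 57 bp outside the end next to LBD4. A second peak at its other end was called in replicates 1 (4.45) and 3 (3.60). PSAN, another lumen subunit, had a mean of 4.20 ± 0.87. The membrane subunits PSAK and PSAG, at the rim where antenna proteins attach, had 3.84 ± 0.23 and 3.70 ± 0.42. Among the stromal subunits that hold ferredoxin, PSAE1 had peaks of every replicate (3.63 ± 0.73, in replicate 1 from a peak 722 bp outside the gene at 4.47, beside one on it at 4.38) and its paralogue PSAE2 (AT2G20260) had none. PSAD1 had peaks in replicates 1 and 2 and its paralogue PSAD2 in replicate 2 only, at 2.98, near the lowest value of the lists. Of PSAH, PSAL and PSAO, which bind mobile antenna trimers, PSAH1 had peaks of every replicate (3.67 ± 0.75), where the value of replicate 2 (4.51) came from a peak 505 bp outside the gene and that list's nearest peak had 3.04. Its paralogue PSAH2 had 1 peak, of 3.61 in replicate 3. PSAL had peaks in replicates 1 and 2, and PSAO in replicates 1 and 3.

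In photosystem II, PSBO1 (AT5G66570), the main isoform of the protein that stabilises the manganese cluster, had the highest mean rank of all 47 genes. Its fold enrichments were 5.82, 5.44 and 4.24 in replicates 1, 2 and 3 (mean 5.17 ± 0.83). The summits lay at 26568462, 26568440 and 26568424 on chromosome 5, within 38 bp, 110 to 148 bp outside one end of the gene. The common region reached from 26567517 to 26572991, because the peak of replicate 1 was 5475 bp long and ran past the gene. The paralogue PSBO2 had 3.76, 4.54 and 3.75, with summits at opposite ends as described above. PSBP1 and the PSBQ genes encode the other extrinsic proteins of the water-splitting side. PSBP1 had peaks of every replicate at the lowest mean of any such member (3.52 ± 0.51), PSBQ1 had 2.96 and 4.23 in replicates 1 and 2, and PSBQ2 (AT4G05180) had none. PSBR, which takes part in assembling those proteins, had 4.01 ± 0.99 with summits within 116 bp. The small membrane subunits PSBW, PSBX and PSBY had 3.57 ± 0.52, 3.80 ± 0.14 and 3.95 ± 1.09, and PSBTN had peaks in replicates 1 and 2. PSBS, which dissipates excess excitation, had 4.20 and 4.16 in replicates 1 and 2, with the summit of replicate 2 well inside the gene, 1565 bp from an end.

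All 3 electron transport genes had a common region. PETC (AT4G03280), the Rieske subunit of the cytochrome complex, had fold enrichments of 5.92, 4.01 and 3.08 in replicates 1, 2 and 3 (mean 4.34 ± 1.45), with summits 101, 72 and 50 bp outside the same end. PETE2 (DRT112, AT1G20340), the more abundant plastocyanin isoform, had 5.40, 4.59 and 3.48 (mean 4.49 ± 0.96), with peaks across the whole gene in every replicate. Its highest summits lay 516, 375 and 518 bp outside one end. PETE1 (AT1G76100) had 5.22, 3.61 and 3.23 (mean 4.02 ± 1.06). Its summits in replicates 1 and 3 lay at one end, 146 bp outside and 26 bp inside, and that of replicate 2 lay 886 bp beyond the other end. In each of the 3 genes replicate 1 was highest and replicate 3 lowest, which is also the order of the median fold enrichments of the whole lists (4.38, 3.85 and 3.58).

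**Figure D3:**
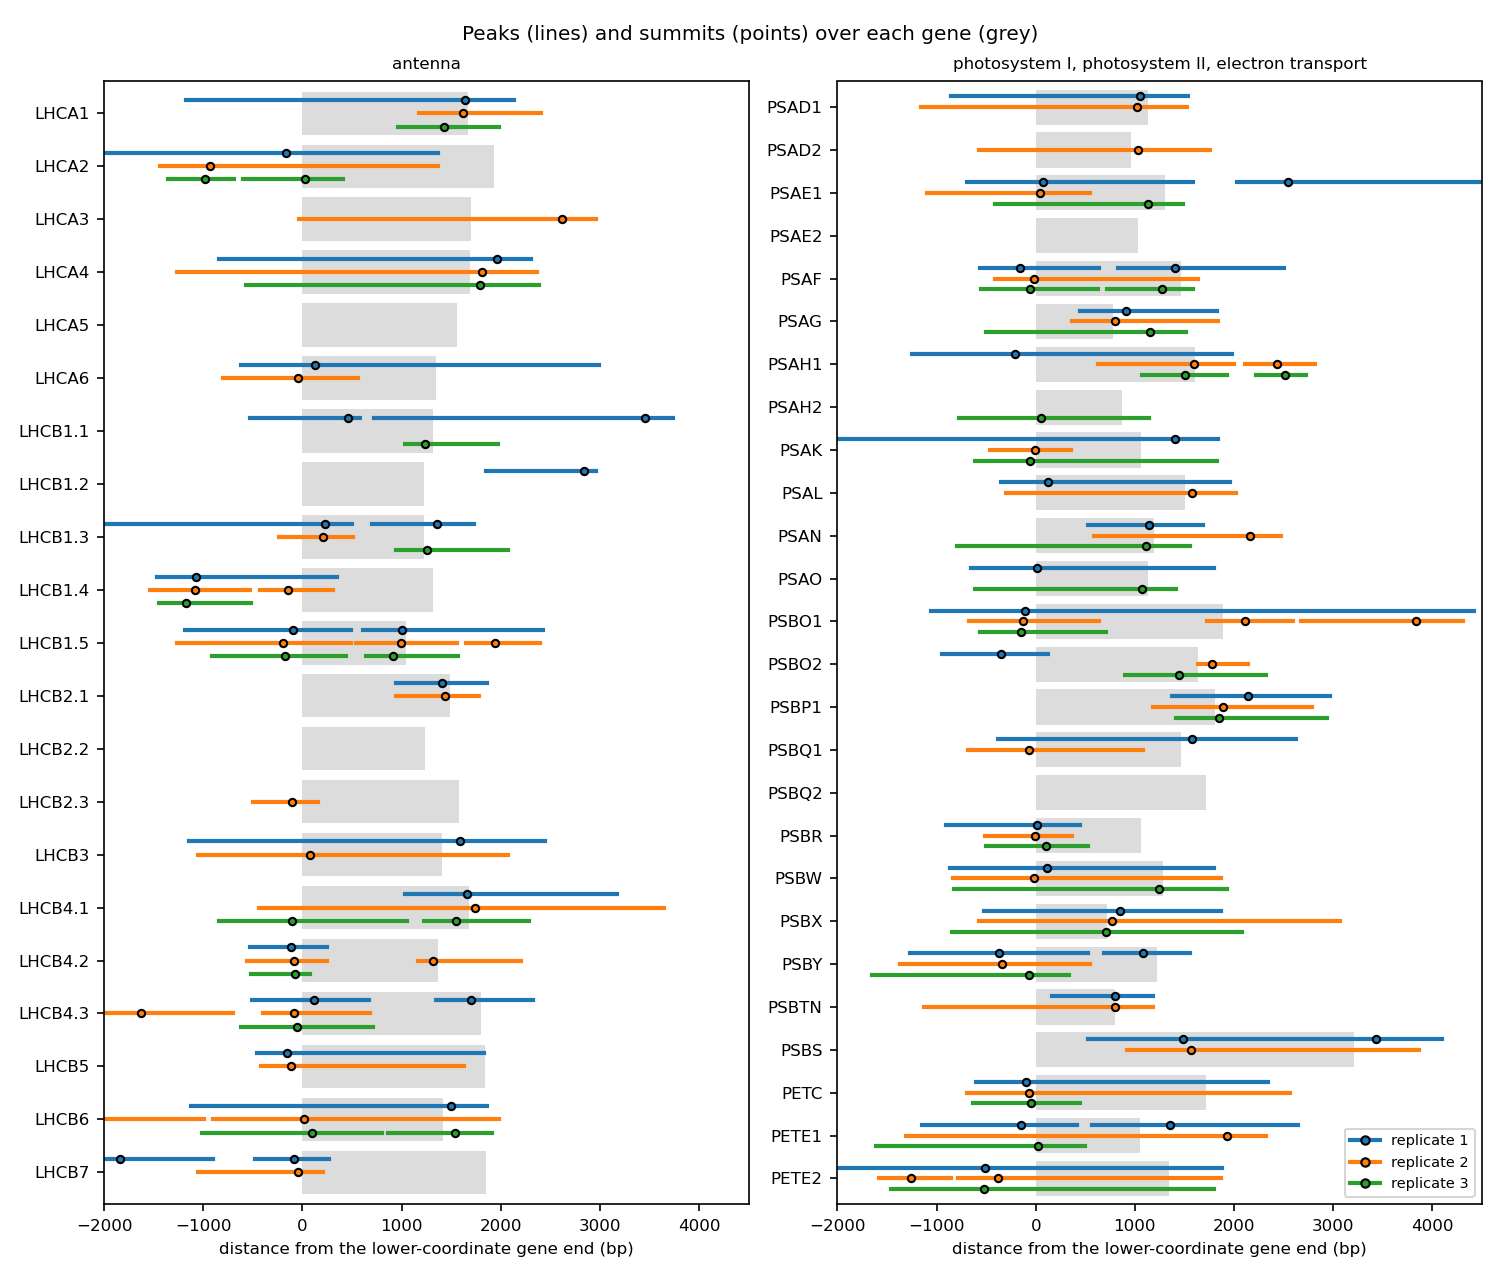
Peaks (coloured lines) and summits (points) of replicates 1, 2 and 3 in blue, orange and green over each member gene (grey bar), with distance in bp from the lower-coordinate end of the gene on the horizontal axis. Lines are cut at the edges of the plot. Summits gather at the ends of the grey bars, and in 26 genes at least 1 line covers the whole bar.

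The summits at these genes were close to the gene ends. The highest summit in the window lay a median of 128, 84 and 73 bp from the nearest end of the member gene in replicates 1, 2 and 3. For all protein-coding genes with a peak the medians were 365, 312 and 356 bp. Within 500 bp of an end lay 34 of 39 (87.2%), 32 of 39 (82.1%) and 27 of 29 (93.1%) member summits, against 56.4, 60.5 and 57.8% over all genes. A peak of every replicate was present at 24 of the 41 members of 1000 to 2000 bp, against 17.0% of protein-coding genes of that length. Of those 41 members, 35, 34 and 26 had a peak in replicates 1, 2 and 3. Their median distances were 128, 97 and 75.5 bp, against 395, 339 and 362 bp for all genes of that length with a peak. Among genes with a peak in every replicate, all 3 summits lay within 500 bp of an end at 18 of 26 members (69.2%), against 42.8% of all genes. They lay nearest to the same end at 17 of 26 members (65.4%), against 76.4% of all genes. The gene table gives no strand, so a promoter end and a downstream end are not told apart.

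Coincident summits narrowed the set. Summits of all 3 replicates lay within 200 bp of each other at 11 members: LHCA4, LHCB1.4, LHCB1.5, LHCB4.1, LHCB4.2, PSAF, PSBO1, PSBR, PSBX, PETC and PETE2. LHCB1.4 and LHCB1.5 count the same site. The same held for 11.1% of all protein-coding genes. Among genes with a peak of every replicate, it held for 11 of 26 members (42.3%), against 59.0% of all protein-coding genes. The closest were those of PSBO1 (38 bp), LHCB4.2 (47 bp) and PETC (51 bp).

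**Figure D4:**
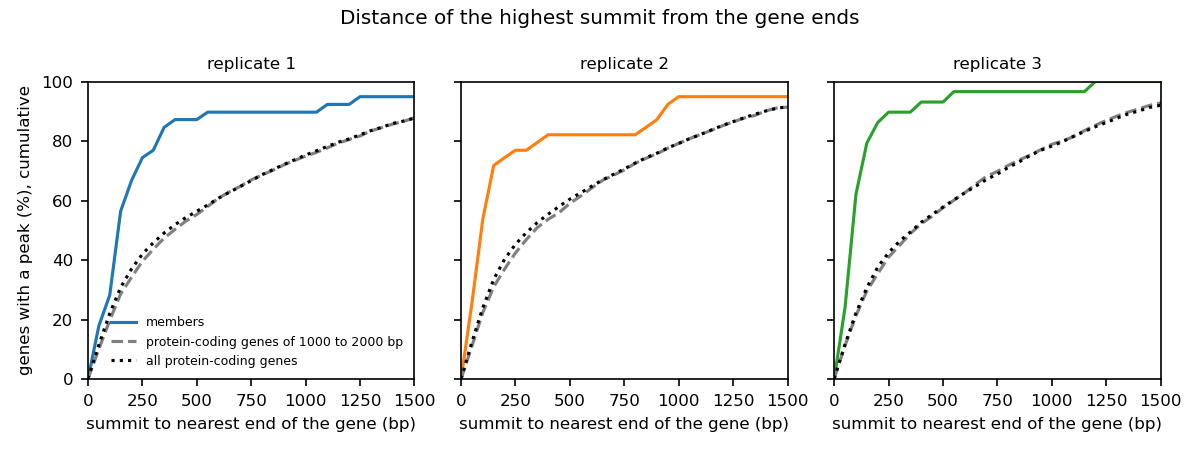
Cumulative percent of genes with a peak (vertical axis) whose highest summit lies within a given distance in bp of the nearest gene end (horizontal axis), for the members (coloured line), protein-coding genes of 1000 to 2000 bp (dashed) and all protein-coding genes (dotted), in each replicate. In every panel the members' line lies above both others at 500 bp, at 87.2, 82.1 and 93.1% against 55.3 to 60.5%.

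The peaks were also long, and many covered a whole gene. The median length of the highest peak was 2305, 1891 and 1423 bp at members in replicates 1, 2 and 3, against 1608, 1278 and 1225 bp over all genes with a peak. A peak spanned the gene from end to end at 17 of 39 (43.6%), 15 of 39 (38.5%) and 10 of 29 (34.5%) members, against 8.75, 5.72 and 4.53% of all genes with a peak. Members are shorter than the typical gene, with a median length of 1367 bp against 2078 bp. Within the class of 1000 to 2000 bp the shares were 45.7, 35.3 and 26.9% of members with a peak, against 13.6, 8.81 and 5.88% of all genes with a peak. At 26 members at least 1 replicate had such a peak, and at 4 all 3 replicates did. These 2 counts were not made over all protein-coding genes, so they have no background.

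Spanning peaks were more frequent in photosystem I than in the other photosystem or the antenna. They occurred at 6 of 9, 4 of 9 and 6 of 8 photosystem I genes with a peak in replicates 1, 2 and 3 (66.7, 44.4 and 75.0%). Photosystem II had 4 of 10, 3 of 10 and 2 of 7 (40.0, 30.0 and 28.6%), and the antenna had 5 of 17, 5 of 17 and 1 of 11 (29.4, 29.4 and 9.09%). This order was the same in each replicate and was not tested, since 3 replicates allow no sign-flip permutation p below 0.25. Photosystem I genes were also the shortest, with a median of 1133 bp against 1464 bp in photosystem II and 1491 bp in the antenna, and the part of length in this order was not tested.

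Common regions were shared with neighbouring genes. The common region of each of the 26 members also reached the window of another protein-coding gene, with a median of 3 genes per region. Over all 5574 protein-coding genes with a common region, this held for 83.6%, with a median of 2 genes. When each peak was given only to the gene nearest to its summit, 13 of 47 members kept a peak of every replicate, against 9.73% of all protein-coding genes. They were LHCA1, LHCA2, LHCA4, LHCB1.5, LHCB4.1, LHCB4.3, PSAE1, PSAF, PSAK, PSBO1, PSBR, PETC and PETE2. At 10 of the 26 members with a common region, the highest summit of every replicate lay nearest to the member itself. This count was not made over all protein-coding genes, so it has no background. PSAF kept replicates 1 and 3 through peaks of 4.45 and 3.60, since its highest summits there lay nearer to LBD4. At PSBP1 the highest summit of every replicate lay nearer to AT1G06690. That of replicates 1 and 2 lay nearer to AT4G10330 at LHCB5, to VPS2.1 at PSBX and to KCR1 at PSBY. At LHCB7 the highest summit of replicates 1 and 2 lay nearer to CP12-3, a gene of a Calvin cycle regulator. With peaks at a false discovery rate of at most 1% only, 7 of 47 members had a peak of every replicate, against 4.78% of all genes. These were LHCA4, LHCB1.5, LHCB4.1, LHCB6, PSAF, PSBO1 and PETE1. At this threshold 14, 24 and 18 members had a peak in replicates 1, 2 and 3. The shares of all genes in single replicates were not counted at this threshold, so these 3 counts have no background. The lists held 1173 of 7084, 3621 of 7534 and 2906 of 6037 peaks at or below 1%.

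Other genes of the thylakoid and genes of nuclear or plastid transcription regulators were counted for context. Of 17 thylakoid genes outside the set, 7 had a peak of every replicate and 3 had none, where 18.8 and 51.9% of all protein-coding genes did. Among them the ferredoxin gene FD1 had 5.44, 6.02 and 3.88 in replicates 1, 2 and 3, and PSB27, of photosystem II repair, had 4.69, 4.32 and 4.78. NPQ1, the violaxanthin de-epoxidase gene, had 6.42, 4.43 and 3.12 without a region common to the 3 replicates. ATPD, TAP38 and PSBP2 had no peak. Of the 10 regulator genes, 3 had a peak of every replicate and 2 had none, against the same 18.8 and 51.9%. GLK1, a transcription factor gene that acts on antenna genes, had 4.06, 5.30 and 3.92, while GLK2 had peaks in replicates 1 and 3. Of the sigma factor genes, whose products direct plastid transcription, SIG4 had 6.51, 6.08 and 6.13 and SIG1 had 4.75, 5.45 and 4.12, and SIG3 and SIG5 had none.

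Few calls rested on the edge of the window. The farthest peak counted was the one 992 bp from LHCB6 in replicate 2, with a fold enrichment of 4.01, and LHCB6 had a nearer peak in that list. The nearest peak left out lay 1062 bp from PSBQ2 in replicate 1, with a fold enrichment of 4.58, so PSBQ2 would have had 1 peak in a slightly wider window.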

How the data were processed

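Bowtie and the TAIR10 build are named in the submitters' processing notes. Not stated in the sources used here are the peak caller, its filters, the use of the input and the handling of reads with several matches. Each of the 3 ChIP replicates has its own deposited list of 9 unnamed columns, read by their order and values. The deposited read counts per peak were not normalized. The deposited score (a transformed p-value by its range) was not used. Fold enrichment, as deposited, is a ratio on a linear scale and describes or ranks peaks within a list. SDs over lists hold differences between lists as well as samples. The last deposited column, in percent, was read as a false discovery rate, at most 4.99%. Total library depth is unknown.

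Gene positions came from the NCBI gene table of TAIR10.1, matched by locus for 47 of 47 members. As a check of coordinates, 70.0, 70.4 and 65.8% of summits in replicates 1, 2 and 3 were at most 500 bp away from where a protein-coding gene starts or stops, against 37.0, 37.8 and 38.0% after a shift of 2000 bp. The table gives no strand, and no sequence was used here, so the planned motif search and distances from transcription starts were not run. Overlaps of at least 1 bp counted, in Python 3.11.15 with pandas 2.3.3 (counting was tested on simulated data). A nearest gene was the one at the smallest distance from the summit, or from the middle of a merged region. Where several genes tied, the first by start position was taken. Described in full were the 10 members of highest mean percentile rank among those with a common region, the LHCB1, LHCB2, PETC and PETE genes and members without a peak; others named with values were chosen after their values were seen. The members are defined by locus and function, and members, lists and comparisons were chosen with earlier results of these data known. No condition contrast exists, so no p-value is given. Alternatives were other windows, stricter peaks, summits in place of peaks, fewer replicates and the nearest gene.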

Additional observations from a re-analysis of the deposited data

How the results depend on the processing

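The count of 26 of 47 members with a peak of every replicate, and that of 26 with a common region, stayed within 1.5 times under flanks of 500 or 2000 bp, flanks without the gene body, summits in place of peaks, peaks of at least 2 replicates and overlap of at least 50% of the shorter peak. Leaving out 1 replicate gave 26 to 36 members with a peak of each remaining replicate and 25 to 36 with a common region, the highest without replicate 3, where the shares of all protein-coding genes were 21.4 to 26.8% and 21.9 to 27.7%. Those shares were 16.2 and 24.3% for a peak of every replicate under flanks of 500 and 2000 bp, and 32.1% for peaks of at least 2 replicates. For a common region they were 18.2, 24.9 and 33.1% in the same order. Flanks without the gene body gave 18.3 and 20.1% for the 2 counts, and summits in place of peaks gave 14.3 and 13.4%. No such share was counted for overlap of at least 50%. By complex, leaving out 1 replicate gave 10 to 15 and 9 to 16 for the antenna. Photosystem I had 6 to 8 and 6 to 8, photosystem II 7 to 10 and 6 to 9, and electron transport 3 throughout. At a false discovery rate of at most 1%, both counts were 7, with 4 in the antenna and 1 in each other complex. The shares of all protein-coding genes were then 4.78 and 5.66%. With the nearest gene only, 13 members had a peak of every replicate (6 antenna, 3 photosystem I, 2 photosystem II) and 17 a common region (7 antenna, 3 photosystem II). The same setting called 9.73 and 10.8% of all protein-coding genes. With summits within 200 bp, 11 members remained (5 antenna, 1 photosystem I, 3 photosystem II). With at least 2 replicates, 16 antenna genes had peaks and 10 photosystem II genes a common region. These settings use fewer peaks, genes or replicates by construction. The median of the members' mean percentile rank was 50.5, 48.4 with the peak nearest to the gene and 51.0 to 55.0 without 1 replicate. The mean of the median summit distances was 95.0 bp, 118 bp with stricter peaks and 78.5 to 106 bp without 1 replicate. Genes of 1000 to 2000 bp, a background chosen after seeing the data, had a peak of every replicate in 17.0%, against 18.8% of all protein-coding genes. No paired analysis was possible because only 1 condition has peak lists.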
